A study of Homo sapiens with 8 samples.

Results

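The genes described here are the ZNF zinc finger genes of human chromosome 19. They were taken as all genes with a probe in the deposited table whose symbol is ZNF and a number, with or without a letter after it, and which the RefSeq gene table places on chromosome 19. Antisense, divergent and read-through symbols were left out. This gave 248 genes, read by 381 probes, of the 21524 genes measured. The RefSeq table lists 265 genes of this kind, and the 17 without a probe were not analysed here. Of the 248, 239 are protein-coding and 9 are transcribed pseudogenes. The rule itself uses names and positions, but the family was chosen by its differences between these same arrays, CFC1 minus mock. Counts and medians over the family are therefore a description, and no test of the family was made.

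ZNF genes encode transcription factors that bind DNA through tandem zinc fingers. Most of those on chromosome 19 also carry a KRAB domain, which recruits the co-repressor TRIM28 and, through it, enzymes that place repressive histone marks. They arose by repeated local duplication, lie in clusters of close relatives, and many bind and silence transposable elements. Because relatives share sequence, a probe for one may also detect another, and their separate values are uncertain for that reason.

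The study compared 4 arrays labelled CFC1, called CFC1 arrays below after that label, with 4 mock arrays. All were labelled as NGP, an established human neuroblastoma line, grown in serum-containing medium and selected with puromycin after lentiviral transduction. By the labels, the CFC1 arrays are from cells given CFC1 cDNA, which encodes a co-receptor for Nodal ligands, and the mock arrays are from cells given a mock construct. The labels do not say whether replicates were separate cultures or whether the transduced cells were clonal, so SEs and p-values below describe how far these arrays scatter, and part or all of that scatter may be technical.

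Each value is a log2 difference from a baseline of its probe that is not stated. A value therefore shows how arrays differ for 1 gene and gives no level of expression, and whether the markers of the line are present or absent cannot be read. Of 13 measured markers of noradrenergic neuroblastoma, 1 was higher and 10 were lower in the CFC1 arrays, where 29.7% of all genes were higher and 28.2% lower. Of markers of other cell types, 4 of 5 for fibroblasts, 3 of 4 for epithelium and both measured ones for Schwann cells were lower, and none was higher. The part of any of these in the differences below was not tested. The CFC1 gene itself did not check the labels: its 1 probe read 0.055, -0.69, -0.59 and -0.30 in CFC1 replicates 1 to 4, against 0.47, 1.1, 0.12 and -0.027 in mock replicates 1 to 4. The CFC1 arrays thus lay lower on average and overlapped the mock arrays (difference -0.80, exact two-sided permutation p = 0.057, smallest possible p = 0.029, limma adjusted p = 0.0398). Every direction below rests on the labels.

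Most of the family differed between the groups, most often upward and most often toward 1 end of the chromosome. In limma's fit over all 21524 genes, with Benjamini-Hochberg adjustment and a threshold of 0.05, 127 of the 248 genes were higher in the CFC1 arrays, where the share of all genes was 29.7%. In the same fit 64 were lower, where the share of all genes was 28.2%, and 57 did not pass. In both directions together, 57.9% of all genes passed. A difference of at least 1 log2 unit, which is 2-fold, was passed upward by 62 (9.71% of all genes) and downward by 6 (8.97% of all genes). The 4 arrays of the groups did not overlap in 126 genes that were higher (29.1% of all genes) and in 59 that were lower (27.3% of all genes). After quantile normalization between arrays, the family split into 134 higher and 35 lower. That step gives all arrays a common distribution. Over all genes the SD of the gene means was 0.47 in the CFC1 arrays and 1.01 in the mock arrays. It therefore rescales the differences themselves, here and wherever it is used below.

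The median difference of the 248 genes was 0.34 on the log2 scale, beside -0.086 over all genes. The median over all genes was -0.048 after quantile normalization and -0.034 without mock replicate 4. The 268 ZNF genes of other chromosomes had a median difference of -0.044, or 0.018 after quantile normalization, with 94 higher and 91 lower. The other 1180 measured genes of chromosome 19 had a median difference of -0.069, with 338 higher and 333 lower, or -0.023 with 339 higher and 261 lower after quantile normalization. Replicates lay close together: the median SD of a ZNF gene of chromosome 19 was 0.085 over the CFC1 arrays and 0.1 over the mock arrays, beside 0.106 and 0.113 over all genes. No test was made between these lists.

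**Figure D1:**
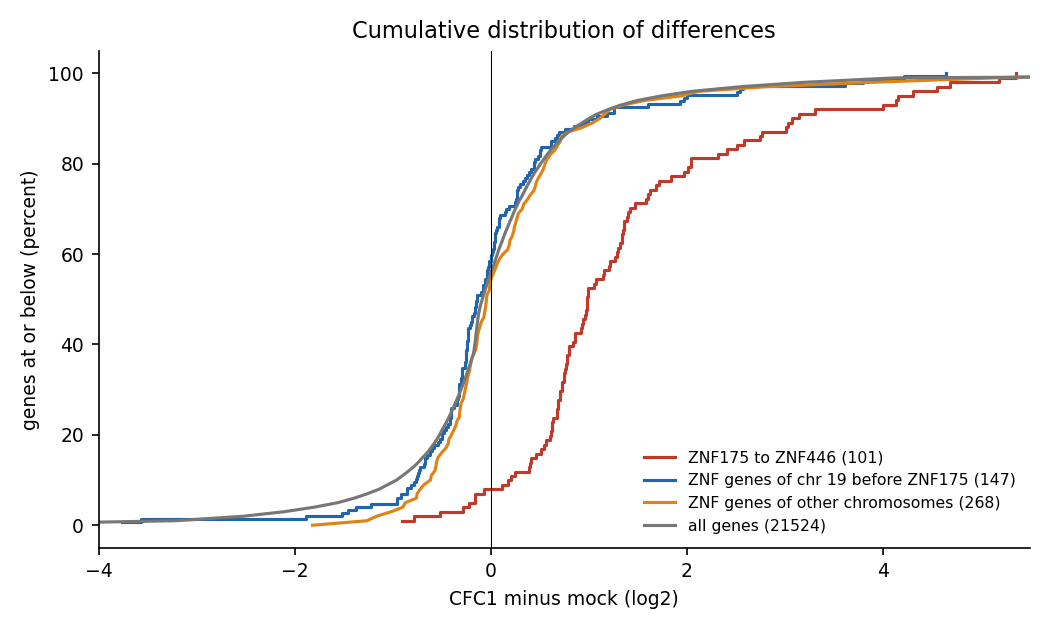
Cumulative share of genes (percent, y axis) against the difference CFC1 minus mock (log2, x axis), for the ZNF genes from ZNF175 to ZNF446, the ZNF genes of chromosome 19 before ZNF175, the ZNF genes of other chromosomes and all genes. The curve of the 101 genes from ZNF175 to ZNF446 lies to the right, with a median of 0.98, and the other curves run close together near 0.

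The counts differed along the chromosome. In the RefSeq order the 248 genes form 18 runs of neighbours, where a new run begins after more than 10 other protein-coding genes, and 5 of the runs hold 1 gene. The last 3 runs, from ZNF175 to ZNF446 at the end of the long arm, hold 101 genes. This boundary was chosen after the values were seen. Of the 101, 88 (87.1%) were higher in the CFC1 arrays, 3 (2.97%) were lower and 10 did not pass, and their median difference was 0.98. Of the 147 genes before ZNF175, 39 (26.5%) were higher, 61 (41.5%) were lower and 47 did not pass, and their median difference was -0.14. Over all genes 29.7% were higher and 28.2% lower, and the counts of single runs below stand beside these shares. The share of the 147 that was higher is near that over all genes. The median of these 147 was 0.0020 after quantile normalization, with 44 higher and 32 lower.

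The differences in the last 3 runs varied in size, and some were far larger than most. Their lower and upper quartiles were 0.68 and 1.69, beside -0.40 and 0.29 before ZNF175. Between 0.5 and 1.5 log2 units lay 56 of the 101 genes, and 22 reached 2 units or more. Before ZNF175, 93 of 147 genes lay within 0.5 of 0, 14 between 0.5 and 1.5, and 8 at 2 or more. Of the 62 genes of the family that were at least 2-fold higher, 47 lay from ZNF175 on and 15 before it. The 117 other protein-coding genes measured beyond ZNF175 had a median difference of 0.13, with 41 (35.0%) higher, 8 (6.84%) lower and 68 that did not pass. Zinc finger genes with other names were not left out of these 117, and TRIM28 is among them. Over all genes 29.7% were higher and 28.2% lower. Replicates of these 117 genes were less close than those of the ZNF genes beside them, with a median SD of 0.16 over the CFC1 arrays and 0.2 over the mock arrays, where the 101 ZNF genes had 0.075 and 0.114.

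**Figure D2:**
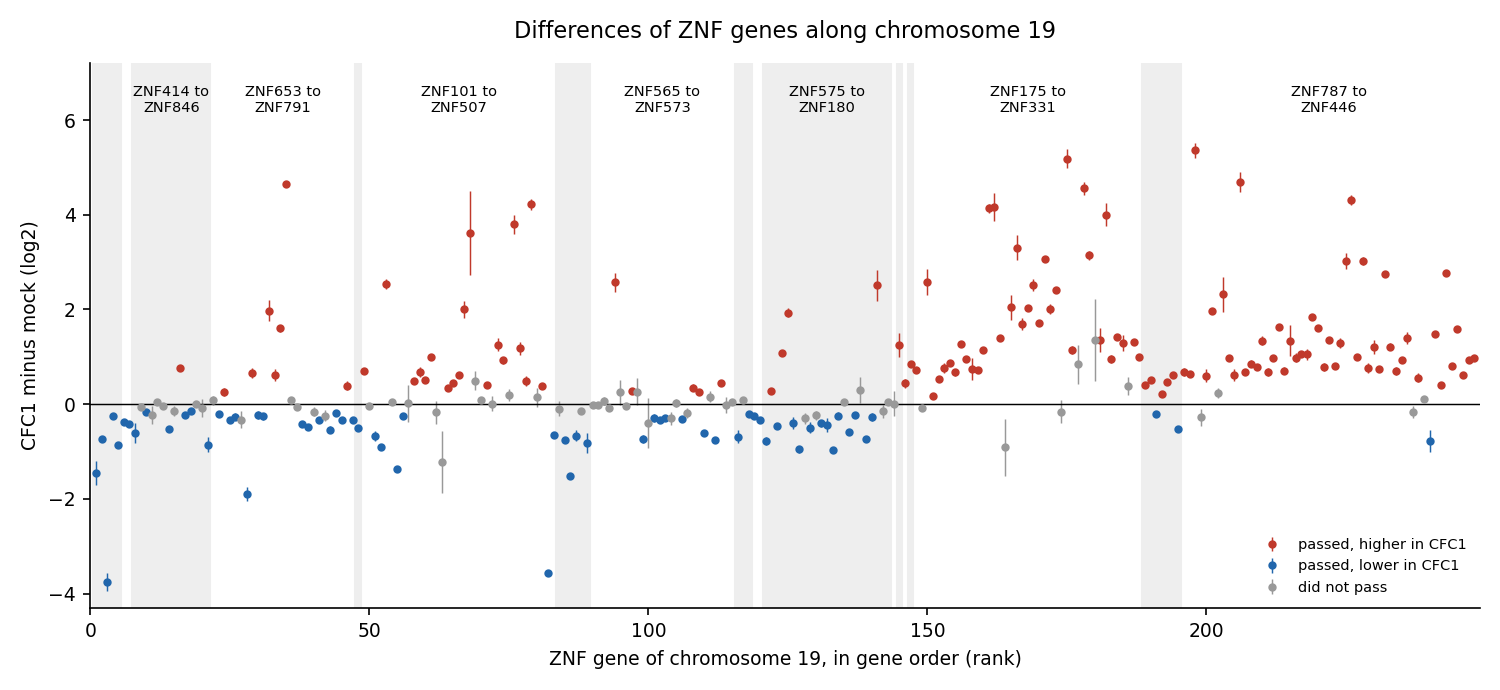
Difference CFC1 minus mock (log2, y axis) of each of the 248 ZNF genes by its rank in gene order on chromosome 19 (x axis), with bars of 1 SE. Shading separates the runs, and runs of 14 or more genes are named. From ZNF175 on, 88 of 101 points are higher in the CFC1 arrays, while earlier runs hold both directions.

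The pattern can also be described array by array. These are the arrays that gave the calls, so their medians show the same values again and are no separate support. In the run from ZNF175 to ZNF331 (41 genes), the median over genes was 0.417, 0.467, 0.419 and 0.4 in CFC1 replicates 1 to 4, against -0.627, -0.797, -0.926 and -0.737 in mock replicates 1 to 4. In the run from ZNF787 to ZNF446 (53 genes), it was 0.708, 0.662, 0.709 and 0.679 in the CFC1 arrays, against -0.4, -0.403, -0.419 and -0.368 in the mock arrays. The groups stood apart in both runs. For the 26 genes from ZNF565 to ZNF573, the array medians were 0.0792, 0.0712, 0.0546 and 0.1 in the CFC1 arrays and 0.107, 0.102, 0.0866 and 0.0989 in the mock arrays, so that the groups overlapped. For the 23 genes from ZNF575 to ZNF180 they were between 0 and 0.0375 in the CFC1 arrays and between 0.258 and 0.309 in the mock arrays. The median of that run was thus lower in every CFC1 array than in any mock array, by less than the groups differed in the last runs. Its genes went both ways: 13 of the 23 were lower, none by 2-fold, and 4 were higher, 3 of them by at least 2-fold.

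**Figure D3:**
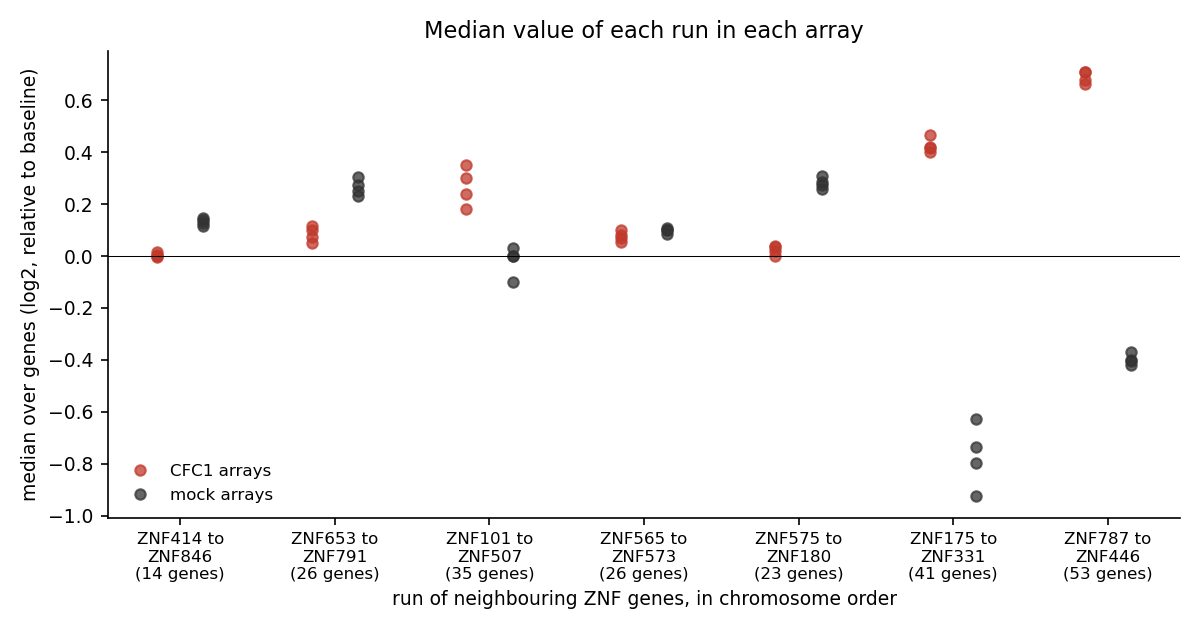
Median value over the genes of a run (log2, relative to the probe baselines, y axis) in each of the 4 CFC1 and 4 mock arrays, for the 7 runs of 14 or more ZNF genes in chromosome order (x axis). The groups lie farthest apart in ZNF175 to ZNF331 and ZNF787 to ZNF446, where all CFC1 arrays are above 0 and all mock arrays below.

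In the run from ZNF175 to ZNF331, 35 of 41 genes were higher and none was lower, with ZNF577, ZNF534, ZNF888, ZNF160, ZNF665 and ZNF761 not passing. Its median difference was 1.32. ZNF816 read 0.23, 0.30, 0.21 and 0.29 in CFC1 replicates 1 to 4 and -4.6, -5.56, -4.79 and -4.78 in mock replicates 1 to 4. The difference of 5.19 (SE 0.196) was the largest of the run. ZNF415, reported to repress transcription driven by p53, read 0.87, 0.81, 0.83 and 0.92 in the CFC1 arrays, against -3.94, -3.94, -3.55 and -3.36 in the mock arrays. Its difference was 4.56 (SE 0.137), and for both genes every CFC1 array lay more than 4 units above every mock array.

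ZNF610 and ZNF880 are adjacent in the family's order and moved alike. ZNF610 read -0.13, 0.14, 0.13 and -0.016 in the CFC1 arrays and -4.05, -4.34, -4.09 and -3.93 in the mock arrays, a difference of 4.13 (SE 0.102). ZNF880 read 0.49, 0.56, 0.42 and 0.39 in the CFC1 arrays and -2.81, -3.62, -4.1 and -4.27 in the mock arrays, a difference of 4.16 (SE 0.301). Its mock arrays were spread widely, with replicate 1 the highest, and none reached a CFC1 array. Its 3 probes gave 2.78, 4.52 and 5.18. The mock spread was widest in the first probe, which read 0.221, -1.96, -2.655 and -3.35 in mock replicates 1 to 4. The next 9 measured genes after ZNF534, from ZNF578 to ZNF320, all passed, with differences between 1.69 and 3.31. Where a gene has several probes these are means, and the probes of ZNF600 gave 3.07, 2.24 and -0.16, of which the last did not pass. The largest difference of the 9 was that of ZNF808, which binds transposable elements and is needed for human pancreas development. It read 0.42, 0.47, 0.49 and 0.48 in the CFC1 arrays, against -2.86, -2.01, -3.28 and -3.22 in the mock arrays, a difference of 3.31 (SE 0.268). Its probes gave 2.32 and 4.30.

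Other genes of the run have known functions. ZNF677, a reported tumour suppressor, read 1.89, 1.87, 1.79 and 1.7 in the CFC1 arrays and -1.48, -2.75, -2.35 and -2.17 in the mock arrays, a difference of 4.0 (SE 0.246). ZNF350, a partner of BRCA1 in transcriptional repression, was higher by 0.54 (SE 0.0371). ZNF331, an imprinted gene at the end of the run, was higher by 0.99 (SE 0.0624), and by 1.54 after quantile normalization. ZNF534 had the lowest difference of the run, -0.91 (SE 0.602), and did not pass.

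In the run from ZNF787 to ZNF446, 48 of 53 genes were higher, 1 was lower and 4 did not pass, with a median difference of 0.98. From ZNF583 to ZNF606, 37 genes in a row lay above 0, and 36 of them passed. The pseudogene ZNF542P had the largest difference of the whole family. It read -0.019, -0.0061, 0.0042 and -0.061 in the CFC1 arrays and -5.05, -5.12, -5.68 and -5.67 in the mock arrays, a difference of 5.36 (SE 0.158). Its probes gave 4.54 and 6.18. ZNF264 read 0.77, 0.60, 0.78 and 0.77 in the CFC1 arrays, against -4.54, -4.04, -3.71 and -3.55 in the mock arrays, a difference of 4.69 (SE 0.204). No array of one group came near the other in either gene.

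ZNF154 and ZNF671, neighbours in this run, were both much higher. ZNF671, a reported tumour suppressor, read 1.33, 1.18, 1.37 and 1.46 in the CFC1 arrays and -2.98, -3.14, -3.07 and -2.7 in the mock arrays, a difference of 4.31 (SE 0.106). ZNF154 was higher by 3.03 (SE 0.171), ZNF586 by 3.01 (SE 0.0846) and ZNF837 by 2.77 (SE 0.0454). ZNF444, whose protein binds the promoter of a scavenger receptor gene, was higher by 0.63 (SE 0.0455). The 1 lower gene was ZNF544, at -0.78 (SE 0.238), whose 2 probes gave -1.31 and -0.25. Its call was lost without CFC1 replicate 3 (-0.75, limma adjusted p = 0.0586) or CFC1 replicate 4 (-0.74, limma adjusted p = 0.06).

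The short run between these, ZNF628 to ZNF580 (7 genes), moved little: 5 genes were higher and 2 lower, none by 2-fold. ZNF581 had its largest difference, 0.62 (SE 0.046), and ZNF580, its neighbour, had -0.51 (SE 0.0611). Of the 4 genes that stand alone between ZNF180 and ZNF175, 3 were higher. ZNF473, whose protein is needed for processing of histone mRNA, was higher by 0.85 (SE 0.0612), and ZNF114 by 0.44 (SE 0.104), or 0.77 after quantile normalization. ZNF541, a gene of male meiosis, was higher by 1.25 (SE 0.26), but by 0.47 with a limma adjusted p of 0.376 after quantile normalization. ZNF296 did not pass (0.0057, SE 0.264).

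**Figure D4:**
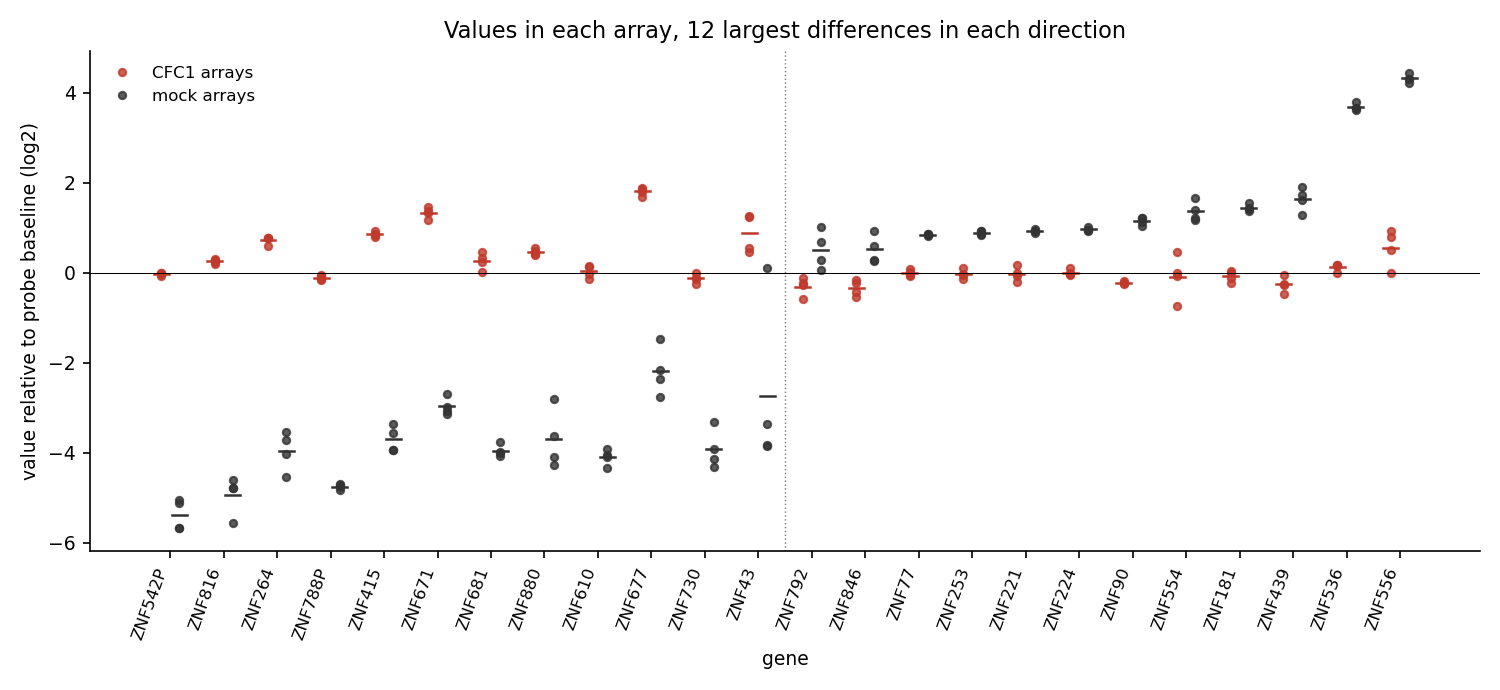
Values (log2, relative to the probe baseline, y axis) in each of the 4 CFC1 and 4 mock arrays, with the mean as a bar, for the 12 ZNF genes with the largest higher and the 12 with the largest lower difference that passed without overlap (x axis, divided by the dotted line). The 12 higher genes have CFC1 means between -0.12 and 1.81 and mock means between -5.38 and -2.19, and the 12 lower genes have CFC1 means between -0.33 and 0.56 and mock means between 0.51 and 4.32.

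Of the 12 genes with the largest rise that passed without overlap, 8 lay from ZNF175 on. The other four were ZNF788P in the run from ZNF653 to ZNF791, and ZNF681, ZNF730 and ZNF43 in the run from ZNF101 to ZNF507. For all 12 the CFC1 means lay nearer to the baseline than the mock means did. That is not particular to these 12. Over all genes the SD of the gene means was 0.47 in the CFC1 arrays and 1.01 in the mock arrays. How near the mock arrays were to background is not given. The differences are therefore fitted values, and they do not show which group departed from the usual level of the line.

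The run from ZNF101 to ZNF507 holds 35 genes and spans the centromere. In it 19 genes were higher, 6 were lower and 10 did not pass, with a median difference of 0.41. ZNF681 read 0.46, 0.33, 0.01 and 0.25 in the CFC1 arrays and -3.99, -4.08, -4.01 and -3.76 in the mock arrays, a difference of 4.22 (SE 0.111). ZNF43 read 1.26, 1.24, 0.47 and 0.55 in the CFC1 arrays, against 0.12, -3.83, -3.84 and -3.37 in the mock arrays. Mock replicate 1 lay far above the other mock arrays and just below the lowest CFC1 array. The difference was 3.61 (SE 0.892), and 4.56 without mock replicate 1.

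Both genes best known for silencing young primate transposons were in this run. ZNF93, which silences LINE elements, read 0.74, 0.77, 0.70 and 0.59 in the CFC1 arrays, against -1.55, -1.98, -1.98 and -1.86 in the mock arrays, a difference of 2.54 (SE 0.102). ZNF91, which silences SVA elements, read 0.71, 0.91, 0.84 and 0.64 in the CFC1 arrays, against -0.072, -0.73, -0.39 and -0.46 in the mock arrays, a difference of 1.19 (SE 0.137). Neither gene's groups overlapped, for ZNF91 in the mean of its probes. The 3 probes of ZNF91 gave 2.40, 1.48 and -0.33, of which the last did not pass. Only the first of these kept the groups apart.

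Lower genes were fewer and their differences mostly small. The 5 genes of the first run, from ZNF554 to ZNF77, were all lower. ZNF556 read 0.50, 0.94, 0 and 0.81 in CFC1 replicates 1 to 4, against 4.31, 4.43, 4.32 and 4.22 in mock replicates 1 to 4, a difference of -3.76 (SE 0.195). Its neighbours ZNF554, ZNF555 and ZNF77 had differences of -1.45 (SE 0.249), -0.73 (SE 0.0354) and -0.85 (SE 0.0441).

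ZNF536, a neural gene known to restrain retinoic acid-induced differentiation of neurons, was the second lowest. It read 0, 0.16, 0.17 and 0.15 in the CFC1 arrays and 3.63, 3.66, 3.79 and 3.66 in the mock arrays, a difference of -3.57 (SE 0.0554), with no overlap. ZNF439 read -0.26, -0.46, -0.26 and -0.048 in the CFC1 arrays, against 1.9, 1.74, 1.28 and 1.61 in the mock arrays, a difference of -1.89 (SE 0.145). ZNF181, in the run from ZNF807P to ZNF792, differed by -1.52 (SE 0.0701), and 4 of the 6 genes of that run were lower and none higher.

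The run from ZNF575 to ZNF180 had 13 lower and 4 higher genes of 23, with a median difference of -0.26, or -0.12 with 6 lower and 5 higher after quantile normalization. Within it, the 9 genes from ZNF45 to ZNF225 all lay below 0, and 7 passed. ZNF224, a repressor of the aldolase A gene, read 0, -0.045, -0.03 and 0.097 in the CFC1 arrays, against 0.94, 0.96, 1.02 and 0.95 in the mock arrays. It differed by -0.96 (SE 0.0425) and ZNF221 by -0.96 (SE 0.0805). In the same run ZNF285 was higher by 2.51 (SE 0.32), from 1 probe at 4.2 and another at 0.82 that did not pass.

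The other larger runs held both directions. From ZNF653 to ZNF791, 7 of 26 genes were higher and 13 lower, with a median difference of -0.22, which became 0.0046 with 8 higher and 3 lower after quantile normalization. In that run the pseudogene ZNF788P read -0.15, -0.057, -0.079 and -0.14 in the CFC1 arrays, against -4.71, -4.7, -4.83 and -4.76 in the mock arrays, a difference of 4.65 (SE 0.0424), or 3.02 after quantile normalization. From ZNF565 to ZNF573, 5 of 26 (19.2%) were higher and 7 (26.9%) lower, beside 29.7% and 28.2% over all genes. The median difference of that run was -0.022, or 0.086 after quantile normalization. ZNF382, a reported tumour suppressor, stood out there: it read 0.025, -0.082, -0.023 and -0.20 in the CFC1 arrays and -2.93, -2.91, -2.04 and -2.69 in the mock arrays, a difference of 2.57 (SE 0.195). From ZNF414 to ZNF846, 1 of 14 was higher and 6 were lower, or 2 after quantile normalization.

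Some well-studied members did not pass. ZNF274, which brings the histone methyltransferase SETDB1 to ZNF genes themselves, differed by 0.11 (SE 0.0432, limma adjusted p = 0.0565), although its 4 CFC1 arrays all lay above the mock arrays. Its adjusted p ran from 0.00122 to 0.2 over 12 alternative settings. ZNF558, known to repress the mitophagy gene SPATA18 in neural progenitors, differed by -0.059 (SE 0.0705). ZNF146, whose protein consists almost only of zinc fingers, differed by -0.021 (SE 0.0277), the smallest SE among the named genes.

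Probes of one gene did not always agree. Of the 105 genes with 2 or more probes, 81 had all probes on the same side of 0, and 5 had passing probes in opposite directions. In 30 genes the probes lay more than 1 unit apart, so their mean may describe no single probe. ZNF577 was among the 5 with opposite calls, with probes at 1.58, 0.054 and -1.86 and a mean of -0.073. ZNF253 had probes at 0.63 and -2.46, ZNF493 at 1.76, 0.55, 0.26 and -0.79, and ZNF702P at 2.92, 1.33 and -0.80. For ZNF83 the probes gave 4.67 and 0.36, for ZNF788P 7.09 and 2.20, and for ZNF404 3.96 and -0.088. Which transcript each probe reads was not determined. Over single probes, 192 of the 381 were higher and 88 lower.

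Promoters were examined because runs of neighbours were higher together. RefSeq promoter windows (assembly GRCh38.p14, 250 bases before to 50 after the start, the first listed start where a gene has several) were matched by symbol for 210 of the 248 genes. ZNF816 and ZNF264 had the largest differences among genes with a window, ZNF154 and ZNF671 are the neighbours described above, and ZNF556 and ZNF536 are the lowest genes. Their windows are given 5′ to 3′ on the gene's strand, with CpG dinucleotides in capitals.
ZNF816, chr19:52962832-52963131 (- strand): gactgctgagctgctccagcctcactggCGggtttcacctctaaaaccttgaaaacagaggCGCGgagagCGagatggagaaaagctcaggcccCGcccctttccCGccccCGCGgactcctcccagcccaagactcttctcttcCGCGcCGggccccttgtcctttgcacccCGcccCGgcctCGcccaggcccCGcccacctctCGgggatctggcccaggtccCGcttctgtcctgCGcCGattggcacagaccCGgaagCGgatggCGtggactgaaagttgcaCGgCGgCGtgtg
ZNF264, chr19:57191250-57191549 (+ strand): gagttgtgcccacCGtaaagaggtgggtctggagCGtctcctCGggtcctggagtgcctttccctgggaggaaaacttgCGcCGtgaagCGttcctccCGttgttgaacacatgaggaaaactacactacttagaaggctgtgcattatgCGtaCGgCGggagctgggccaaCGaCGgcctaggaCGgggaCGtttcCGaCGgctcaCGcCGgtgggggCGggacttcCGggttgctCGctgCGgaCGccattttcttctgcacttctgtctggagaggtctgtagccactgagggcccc
ZNF154, chr19:57709155-57709454 (- strand): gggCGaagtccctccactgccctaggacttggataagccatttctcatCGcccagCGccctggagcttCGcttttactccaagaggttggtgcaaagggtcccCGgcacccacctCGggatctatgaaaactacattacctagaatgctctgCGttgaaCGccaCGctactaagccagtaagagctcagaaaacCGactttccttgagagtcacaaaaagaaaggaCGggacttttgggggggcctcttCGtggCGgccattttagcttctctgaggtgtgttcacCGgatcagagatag
ZNF671, chr19:57727575-57727874 (- strand): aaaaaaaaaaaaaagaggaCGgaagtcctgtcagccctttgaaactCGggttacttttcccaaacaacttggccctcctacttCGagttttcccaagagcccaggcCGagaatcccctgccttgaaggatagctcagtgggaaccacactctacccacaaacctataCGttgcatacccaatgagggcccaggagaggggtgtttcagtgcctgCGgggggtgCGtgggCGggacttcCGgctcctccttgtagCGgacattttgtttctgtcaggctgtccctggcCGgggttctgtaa
ZNF556, chr19:2867085-2867384 (+ strand): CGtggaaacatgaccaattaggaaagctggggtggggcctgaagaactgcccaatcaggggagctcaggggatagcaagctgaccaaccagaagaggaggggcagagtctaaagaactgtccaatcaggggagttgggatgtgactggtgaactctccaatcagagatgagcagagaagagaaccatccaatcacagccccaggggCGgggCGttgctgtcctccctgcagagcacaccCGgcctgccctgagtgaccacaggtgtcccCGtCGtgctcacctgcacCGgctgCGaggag
ZNF536, chr19:30225342-30225641 (+ strand): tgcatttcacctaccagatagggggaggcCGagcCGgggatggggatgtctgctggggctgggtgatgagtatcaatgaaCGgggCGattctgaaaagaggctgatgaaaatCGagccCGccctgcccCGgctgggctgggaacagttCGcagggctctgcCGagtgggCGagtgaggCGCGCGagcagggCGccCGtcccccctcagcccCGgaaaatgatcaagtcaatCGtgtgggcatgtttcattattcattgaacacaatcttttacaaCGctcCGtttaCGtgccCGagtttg

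These windows hold 25 CpGs for ZNF816, 23 for ZNF264, 14 for ZNF154, 11 for ZNF671, 8 for ZNF556 and 21 for ZNF536. High and low CpG counts thus occur in genes of both directions. Over the family the median was 20 CpGs a window, beside 14 over 27305 RefSeq promoters and 24 over 207 ZNF promoters of other chromosomes. The median was 21 for the 51 genes at least 2-fold higher, 21 for the 56 higher by less, 19 for the 46 that did not pass and 20 for the 57 lower. Across the 210 genes the CpG count and the difference had a Spearman rho of 0.052 and a Pearson r of 0.050, given as a description, since the genes share arrays and ancestry.

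**Figure D5:**
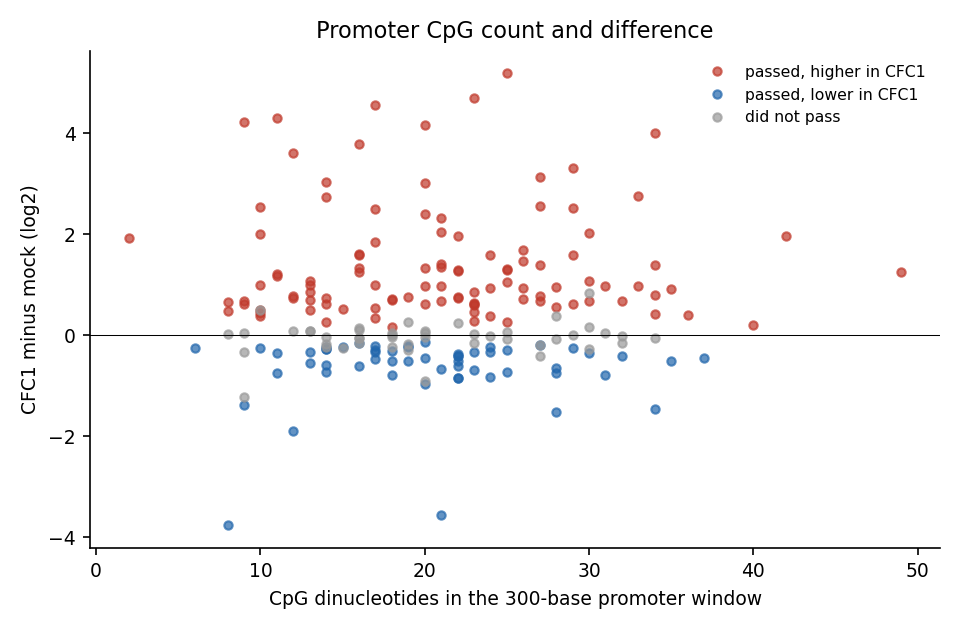
Difference CFC1 minus mock (log2, y axis) against the number of CpG dinucleotides in the 300-base promoter window (x axis) for 210 ZNF genes of chromosome 19, coloured by direction. Higher genes hold between 2 and 49 CpGs and lower genes between 6 and 37, and rho is 0.052.

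Short motifs were searched on both strands, with overlaps between motifs allowed. The GC box GGGCGG was in 67.1% of the family's windows, 78.4% of those of the genes at least 2-fold higher and 68.4% of those of the lower genes. It was in 60.4% of ZNF promoters of other chromosomes and 44.6% of all RefSeq promoters. CCAAT was in 52.9% of the family's windows, 43% of ZNF promoters of other chromosomes and 35.7% of all promoters. Among the genes at least 2-fold higher it was in 52.9%, and among the lower genes in 56.1%. TATAAA was in 4 of the 210 windows, or 1.9%, beside 3.86% of ZNF promoters of other chromosomes and 12% of all promoters. CACGTG was in 4.29% of the family's windows, 6.28% of ZNF promoters of other chromosomes and 7.43% of all promoters. A match is a description of letters and not a bound site.

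Genes for the proteins through which KRAB zinc fingers act were higher and lower in equal number. Of 42 measured genes on a list of 44 for this complex and its chromatin partners, 16 were higher, 16 were lower and 10 did not pass, with a median difference of 0.036. That is 38.1% each way, beside 29.7% higher and 28.2% lower over all genes, and nothing about the list as a whole is read from these counts. TRIM28, the co-repressor itself, lies on chromosome 19 just beyond ZNF446. It read 0.18, 0.092, 0.16 and 0.22 in CFC1 replicates 1 to 4 and -1.19, -1.19, -1.12 and -1.17 in mock replicates 1 to 4, a difference of 1.33 (SE 0.0383) with no overlap, and it was the largest rise of the list. CBX3, a heterochromatin protein, was higher by 1.08 (SE 0.196), or 0.63 after quantile normalization, and the histone methyltransferase SUV39H1 by 0.63 (SE 0.0505). DNMT3A, a DNA methyltransferase, was lower at -1.3 (SE 0.0532), ATF7IP2, a relative of the SETDB1 cofactor ATF7IP, at -1.0 (SE 0.0498), or -0.66 after quantile normalization, and the phosphatase subunit PPP1CB at -0.73 (SE 0.0415). SETDB1 itself did not pass, at 0.041 (SE 0.0326).

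Zinc finger genes of chromosome 19 that do not carry the ZNF name were looked at in the same fit. Of 20 measured, 7 (35%) were higher, 2 (10%) were lower and 11 did not pass, where 29.7% of all genes were higher and 28.2% lower. The share that was higher is thus near that over all genes. At least 2-fold higher were 6 (30%), beside 9.71% of all genes and 25% of the family. At least 2-fold lower was 1 (5%), beside 8.97% of all genes. ZIK1 read 1.5, 1.53, 1.62 and 1.59 in the CFC1 arrays and -2.36, -2.26, -2.09 and -2.26 in the mock arrays, a difference of 3.8 (SE 0.0622). ZFP82 differed by 3.82 (SE 0.463) and PEG3, an imprinted gene, by 2.08 (SE 0.0868). ZFR2, which encodes a zinc finger protein thought to bind RNA, was the lowest of them, at -3.4 (SE 0.183).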

How the data were processed

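Total RNA of the 8 samples was labelled with Cyanine3 by a one-color Agilent kit, per the labels' protocols. The deposited values were read as log2 values, set by the authors against a probe baseline that is not stated. How spots were extracted, corrected for background and scaled, and the logarithm base, are not stated by the sources used here. The table holds no background flags, and 4 arrays a group limit the precision.

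With 140 control spots removed, 31993 of 50599 probes had 1 gene symbol and 18606 stayed unnamed. Names were updated through RefSeq (28423 probes by accession, 3069 by symbol, 479 by synonym), which changed the symbol of 5 probes of the family. A gene's value was the mean of its probes. All 21524 genes were fitted in R 4.3.3 by limma 3.58.1 with moderated variances and no block, CFC1 minus mock, with two-sided Benjamini-Hochberg adjusted p-values and a threshold of 0.05. SE is limma's standard error with 4 arrays a group. The fit was checked on simulated data with independent noise and shifts in few genes. That check does not cover data in which most genes differ or the arrays are related.

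The family, the lists and the tests were chosen with earlier results of these data known. Named genes are CFC1, the 12 largest differences each way among genes that passed without overlap, the largest of each run, genes with probes more than 1 unit apart, up to 6 KRAB partners, up to 4 other zinc finger genes, and members with a known function. Other genes named were chosen after their values were seen. Protein features were not analysed here. The labels tie the replicate numbers of the groups to no shared batch or day, and the numbers were not used in the fit.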

Additional observations from a re-analysis of the deposited data

Results flagged for a closer look

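In 152 groups of 4 arrays (76 named genes, both groups), the gap between 1 array and the nearest of the others was compared with the group's range, and chance alone marks about 1 in 20. For 3 of the 152, 1 array stood apart from the others. ZNF43 read 0.116 in mock replicate 1, while the other mock arrays lay between -3.84 and -3.37. ZNF264 read 0.603 in CFC1 replicate 2, while the other CFC1 arrays lay between 0.771 and 0.779. ZNF536 read 0 in CFC1 replicate 1, while the other CFC1 arrays lay between 0.147 and 0.172. For ZNF264 and ZNF536 the distance is small beside the difference between the groups, 4.69 and -3.57.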

How the results depend on the processing

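After quantile normalization 35 genes of the family were lower and the median difference was 0.471, with 161 of the 191 calls kept in the same direction and the sign turned for ZNF700 (0.024) and ZNF574 (0.0020). Among the named genes, it ended the calls of ZNF546 (-0.43, limma adjusted p = 0.0945) and ZNF541 and added ZNF761 (0.76, limma adjusted p = 0.00307) and ZNF274. Values read as natural logarithms gave 110 genes at least 2-fold apart and a median of 0.495, by construction. Single probes gave a median of 0.282; the cause was not tested. Leaving out 1 array at a time gave 125 to 129 higher, 55 to 62 lower, 68 to 73 at least 2-fold apart and a median of 0.306 to 0.385. It gave 87 to 89 higher genes from ZNF175 to ZNF446, an alternative set added after seeing the data. Of the 42 KRAB partners 30 to 31 passed, and of the 65 named genes of the family 56 to 58. Over all genes 6179 to 6246 were higher and 5795 to 5968 lower. ZNF233 passed only without mock replicate 3 (0.57, limma adjusted p = 0.0193). The replicate number as a block gave 126 higher and 64 lower and kept 187 of the 191 calls. Deviations of same-numbered arrays from their group means correlated by 0.138, 0.199, 0.0741 and 0.19, all above the highest value between different numbers, 0.068. This is a hint of pairing from the data and not from the design. The limma call of CFC1 (adjusted p = 0.0398) was lost with the block (0.0761), with unmoderated variance (0.0662) and without 5 of the single arrays. Of the 75 other named genes, 69 kept their side of the threshold under all 12 alternatives. Signal over background is unknown, so differences that may start near background have no bound.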
